A study of Mus musculus with 9 samples.

Results

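Immediate early genes are the genes that a neuron switches on within minutes of strong synaptic input, before any new protein is made. A list of 40 of them was followed through RNA-seq libraries of mouse tissue labelled as hippocampus. Members were taken by gene symbol from a table of 54513 genes. All 40 were found there, and all 40 were among the 18690 genes with enough counts to be tested.

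The libraries came from 3 groups of 3 mice, and every mouse, controls included, ate a high-fat diet for 12 weeks. HFD mice received nothing else. Trp mice ate the diet with tryptophan mixed in at 0.5% by weight. IPA mice were given indole-3-propionic acid, a bacterial product of tryptophan, by mouth through a gavage tube every day at 100 mg per kg of body weight. No mice on ordinary chow were among the libraries, so no comparison shows the effect of the diet itself. Gavage is described for the IPA group alone. The sources used here do not give strain, sex, age or the interval between the last handling and tissue collection. The deposited columns of the HFD, IPA and Trp samples carry the codes WTB, HEB and HOB. The labels tie each code to a sample but leave it unexplained, so that the columns are of these mice is not settled, and groups are named as labelled. The labels pair no mice across groups, and each library is 1 mouse as far as they say.

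Calcium entering through NMDA receptors and voltage-gated channels activates calmodulin-dependent kinases and the MAP kinase cascade, which phosphorylate CREB and the partners of serum response factor already bound at these genes. The first products are mostly transcription factors (the FOS, JUN, EGR and NR4A families and NPAS4), which then act on later genes such as Bdnf. Others act at the synapse (Arc, Homer1, Nptx2), and further members (the Dusp phosphatases, Sik1, Zfp36) turn the same signals off again. In the hippocampus, levels of Fos, Arc, Egr1 and Npas4 messenger RNA are widely used as records of recent neuronal activity. Messenger RNA of most of these genes is short-lived, so a level reflects the time just before the tissue was taken.

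Total counts ran from 40621084 to 50938746 per library, with 23940 to 24947 genes detected. A count of 0 would allow up to 0.0584 to 0.0751 CPM, depending on the library, and such limits cover counting error only. CPM here are deposited counts scaled to library sizes adjusted by the TMM method. HFD libraries had a mean log2 CPM of 9.20 ± 0.07 (SD, n = 3) over 11 general neuronal markers, IPA libraries 9.25 ± 0.02 and Trp libraries 9.19 ± 0.03. Markers of both hippocampal cell classes were present in every library, with 476 to 561 CPM summed over 13 dentate granule cell genes and 577 to 743 CPM over 13 genes of CA pyramidal cells. Alongside them, 16 markers of striatal projection neurons summed to 1153 CPM in HFD 3 and to 2324 to 4420 CPM in the other libraries. HFD 3 also stood apart in 9 oligodendrocyte markers (16029 CPM against 8117 to 10588 summed), in 11 markers of thalamus and habenula (424 CPM against 125 to 268) and on the first principal component of log2 CPM, which held 22.2% of the variance (-58.3 against -17.0 to 29.4). Transcripts of neighbouring regions thus varied between libraries, also within a group. In bulk tissue, fewer cells of a type and less RNA per cell cannot be told apart.

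Shown first are stretches of DNA upstream of 8 of the genes, chosen because the members' promoters hold the core of a cyclic AMP response element in a larger share than all genes with a promoter window do. This element, bound by CREB, is TGACGTCA in full, with TGACG as its core site. RefSeq promoter windows of the mouse build GRCm38.p6, from 250 bases before to 50 bases after a transcription start, were matched for 31 of the 40 members. Both strands were searched. Some genes have several windows, and a gene was counted, among members and all genes alike, where any of its windows held the motif. At least 1 core site was present in 22 of the 31 (71%), against 23% of 27025 genes with such a window. Among genes with a single window it was present in 18 of 26 members (69.2%), against 20.6% of 22862 genes, and the full site in 3 (11.5%) against 1.85%. The full site, which holds the core site on both strands, was present in 4 (12.9%, Maff, Btg2, Dusp1 and Plk2) against 2.03%. A CArG box, the sequence bound by serum response factor, was found in 3 (9.68%, Egr2, Dusp5 and Zfp36) against 1.81%. Base composition was not matched in these shares. The other motifs were each found in few members. The AP-1 site TGANTCA was in 1 member (3.23%) against 8.97%, the EGR site GCGTGGGCG in 1 (3.23%) against 0.707%, and TATAAA in 5 (16.1%) against 15.7%. A match is a description of the letters and not a measured site. Crem, Egr1, Egr3, Ier2, Arc, Nptx2, Dusp4, Sik1 and Trib1 had no window to search.

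The stretches below run 5′ to 3′ on the strand of the gene, from base -200 to base -1 before the start. Capitals mark core sites, written CGTCA where they lie on the opposite strand. In Btg2 the capitals mark the full site, and in Dusp5 they mark only a pair of adjoining CArG boxes. Fos (chr12:85473690-85473889, plus strand) has core sites at -129 to -125 and at -66 to -62. Junb (chr8:84978749-84978948, minus strand) has 1 at -106 to -102. Egr4 (chr6:85513590-85513789, minus strand) has them at -177 to -173 and at -109 to -105. In Nr4a3 (chr4:48045105-48045304, plus strand) 1 core site lies at -147 to -143, and others of its window fall outside the stretch shown. In Npas4 (chr19:4989972-4990171, minus strand) they lie at -179 to -175 and at -169 to -165. Btg2 (chr1:134079156-134079355, minus strand) carries the full site at -166 to -159. The boxes of Dusp5 (chr19:53528945-53529144, plus strand) lie at -82 to -73 and at -72 to -63. Homer1 (chr13:93303557-93303756, plus strand) has 3 core sites, at -56 to -52, -40 to -36 and -14 to -10.
Fos: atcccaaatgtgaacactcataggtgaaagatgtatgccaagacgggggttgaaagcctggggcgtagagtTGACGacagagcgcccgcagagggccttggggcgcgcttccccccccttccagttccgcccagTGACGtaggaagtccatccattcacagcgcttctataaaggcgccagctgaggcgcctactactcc
Junb: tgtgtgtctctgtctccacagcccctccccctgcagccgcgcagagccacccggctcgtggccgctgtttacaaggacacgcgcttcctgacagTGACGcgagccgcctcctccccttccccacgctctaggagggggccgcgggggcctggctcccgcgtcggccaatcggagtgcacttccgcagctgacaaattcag
Egr4: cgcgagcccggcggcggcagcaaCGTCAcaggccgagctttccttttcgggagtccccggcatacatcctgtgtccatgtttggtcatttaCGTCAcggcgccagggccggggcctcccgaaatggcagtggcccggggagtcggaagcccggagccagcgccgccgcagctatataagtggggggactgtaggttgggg
Nr4a3: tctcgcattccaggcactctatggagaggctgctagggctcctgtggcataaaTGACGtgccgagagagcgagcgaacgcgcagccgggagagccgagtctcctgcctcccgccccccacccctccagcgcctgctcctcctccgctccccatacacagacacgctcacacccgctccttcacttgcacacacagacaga
Npas4: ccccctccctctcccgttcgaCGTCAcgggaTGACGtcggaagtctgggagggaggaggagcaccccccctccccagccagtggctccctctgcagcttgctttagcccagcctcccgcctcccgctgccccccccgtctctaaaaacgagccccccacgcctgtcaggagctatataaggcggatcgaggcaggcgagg
Btg2: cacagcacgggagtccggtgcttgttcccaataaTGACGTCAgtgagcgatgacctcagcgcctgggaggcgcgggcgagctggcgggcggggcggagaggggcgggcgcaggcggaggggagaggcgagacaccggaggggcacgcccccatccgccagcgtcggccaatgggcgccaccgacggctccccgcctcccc
Dusp5: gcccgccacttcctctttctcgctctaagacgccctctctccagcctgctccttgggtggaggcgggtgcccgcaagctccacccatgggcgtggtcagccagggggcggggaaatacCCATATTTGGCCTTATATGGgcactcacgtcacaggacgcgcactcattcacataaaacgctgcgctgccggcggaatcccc
Homer1: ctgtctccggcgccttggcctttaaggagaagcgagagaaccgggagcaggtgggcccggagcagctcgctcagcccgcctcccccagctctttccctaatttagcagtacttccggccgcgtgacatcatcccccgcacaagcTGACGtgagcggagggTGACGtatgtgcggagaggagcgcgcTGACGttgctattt

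Levels of different genes were compared on the authors' FPKM, which divides by gene length. In HFD, 4 of the 40 stood below 1 FPKM and the rest between 1.12 and 59.3 FPKM. Jund was highest at 59.3 ± 9.90 FPKM (SD, n = 3), followed by Egr1 at 47.0 ± 12.1, Arc at 42.7 ± 11.3, the kinase gene Plk2 at 41.7 ± 6.19 and Homer1 at 38.1 ± 7.49 FPKM. Each of these 5 overlapped its neighbour in this order. Fos stood at 12.2 ± 3.56 FPKM, and Npas4 at 3.73 ± 3.23 FPKM. Lowest were Atf3 at 0.474 ± 0.163, Zfp36 at 0.580 ± 0.073, Pim1 at 0.792 ± 0.077 and Maff at 0.795 ± 0.218 FPKM. Counts of 10 members may hold reads of a gene on the other strand, because their exons overlap one there in GENCODE M21 and no strand marking is described. These are Jun, Junb, Jund, Crem, Csrnp1, Dusp1, Dusp5, Pim1, Plk3 and Zfp36.

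As a set, the members stood lower in Trp than in HFD, and Trp and IPA overlapped. Mean log2 CPM over the 40 was 4.29, 4.50 and 4.11 across HFD libraries 1 to 3, 3.84, 4.18 and 4.01 across IPA libraries, and 3.83, 3.94 and 3.92 across Trp libraries. Every Trp library was below every HFD library, whereas IPA 2 lay above HFD 3. Without Fos and Egr1, the 2 members that passed the test, the means were 4.17, 4.39 and 4.02 in HFD, 3.77, 4.11 and 3.93 in IPA, and 3.77, 3.88 and 3.85 in Trp. HFD 2 was the highest library for 14 members and HFD 1 for 9. Lowest was IPA 1 for 12 members, Trp 1 for 7 and HFD 1 for 6. The same counts were not made over all genes, so they may not be particular to the members.

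**Figure D1:**
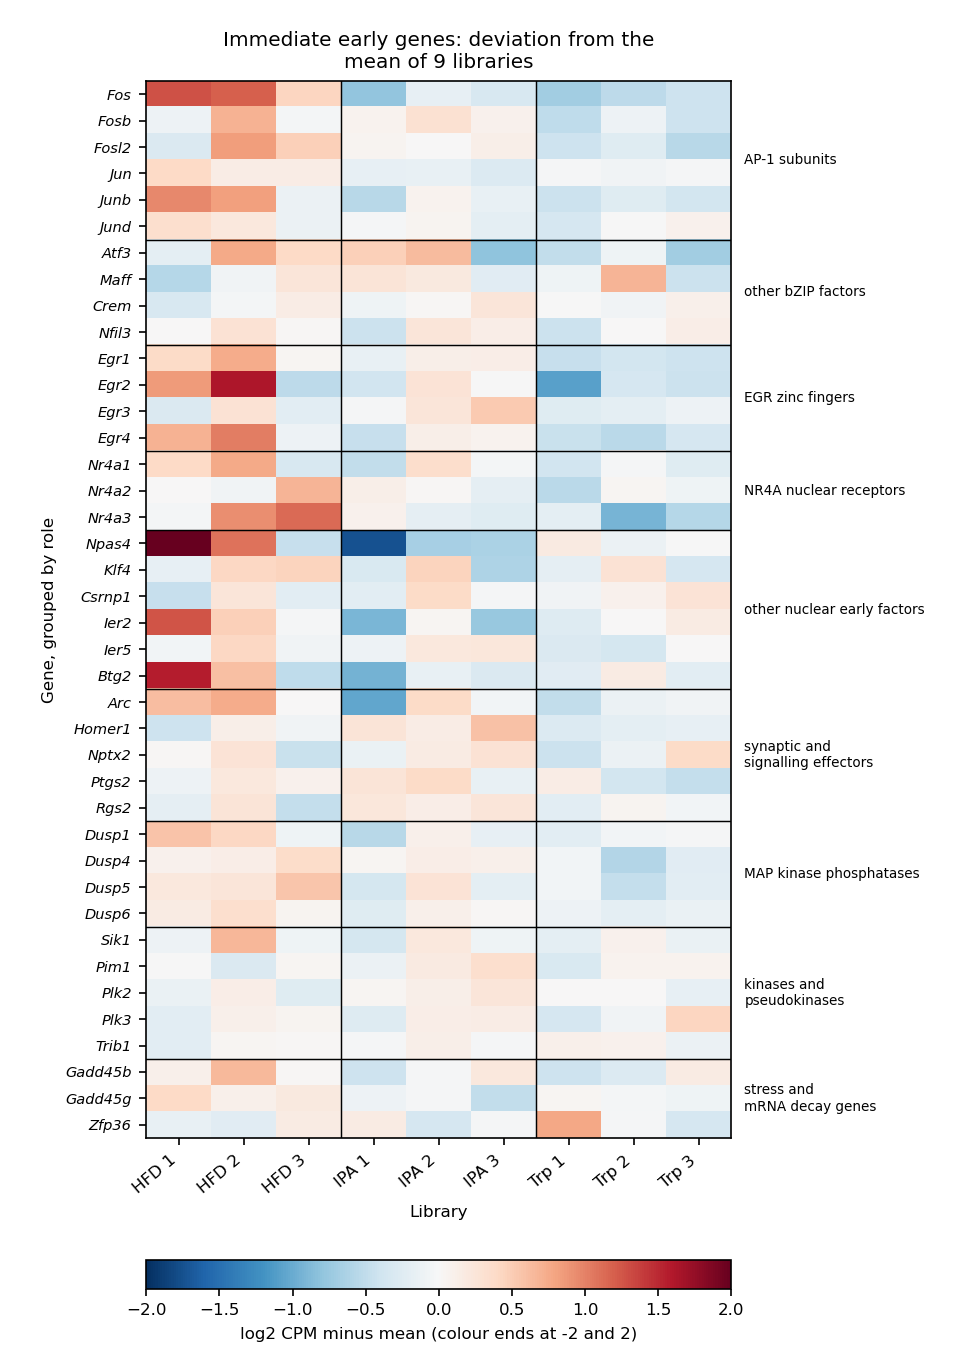
Each row is 1 of the 40 genes, grouped by role, and each column 1 of the 9 libraries; colour is log2 CPM minus that gene's mean over the libraries, with the scale ending at -2 and 2. HFD 2 is the highest library for 14 genes and IPA 1 the lowest for 12, and the Fos row separates HFD (19.0 to 33.9 CPM) from both treated groups (8.11 to 12.5 CPM).

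With tryptophan, the measured levels of Fos and Egr1, which encode DNA-binding factors, were lower than in HFD. Neuronal activity itself was not measured. Fos was 2.94-fold and Egr1 1.78-fold lower than in HFD. These were 2 of 40 members (5%) called by edgeR's quasi-likelihood test at a Benjamini-Hochberg adjusted p under 0.05, against 0.342% of all 18690 genes in either direction and 0.128% in the lower one. No member was called higher (0.214% of all genes were). Most of the others lay on the same side without passing. Fitted log2 fold changes were below 0 for 30 of 40, against 50.5% of all genes, with a median of -0.33 against -0.0022. In 12 members the 3 Trp libraries lay wholly below the 3 HFD libraries (7.43% of all genes did), and in none wholly above (8.06%). An unadjusted p under 0.05 in the lower direction was reached by 13 members, against 5.54% of all genes, and in the higher direction by 0, against 5.76%. Members were chosen with earlier results of these data known, so shares here and below describe the list and are no independent test.

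With indole-3-propionic acid no member passed, and the most negative fitted changes were those of Npas4 (-2.36), Fos (-1.42), Btg2 (-1.21) and Ier2 (-1.16). edgeR called 1 gene of 18690 (0.00535%) in IPA against HFD, and 0 of the 40 members. Fitted changes were below 0 for 26 of 40 members, against 51.1% of all genes, with a median of -0.24 against -0.0056. In 4 members (10%, Fos, Jun, Npas4 and Gadd45g) all IPA libraries were below all HFD libraries, near the share of all genes (8.01%). In 1 member (2.5%), Homer1, all were above, against 7.19% of all genes. At an unadjusted p under 0.05, 12 members were lower (5.46% of all genes) and 1 was higher (4.95%). On the same counts DESeq2 called 5 members in IPA against HFD (Fos, Jun, Ier2, Junb and Npas4, against 1.04% of all genes it tested). In Trp against HFD it called 6 (Fos, Egr1, Egr4, Junb, Fosl2 and Nr4a3, against 1.87%). Both comparisons use the same HFD libraries.

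**Figure D2:**
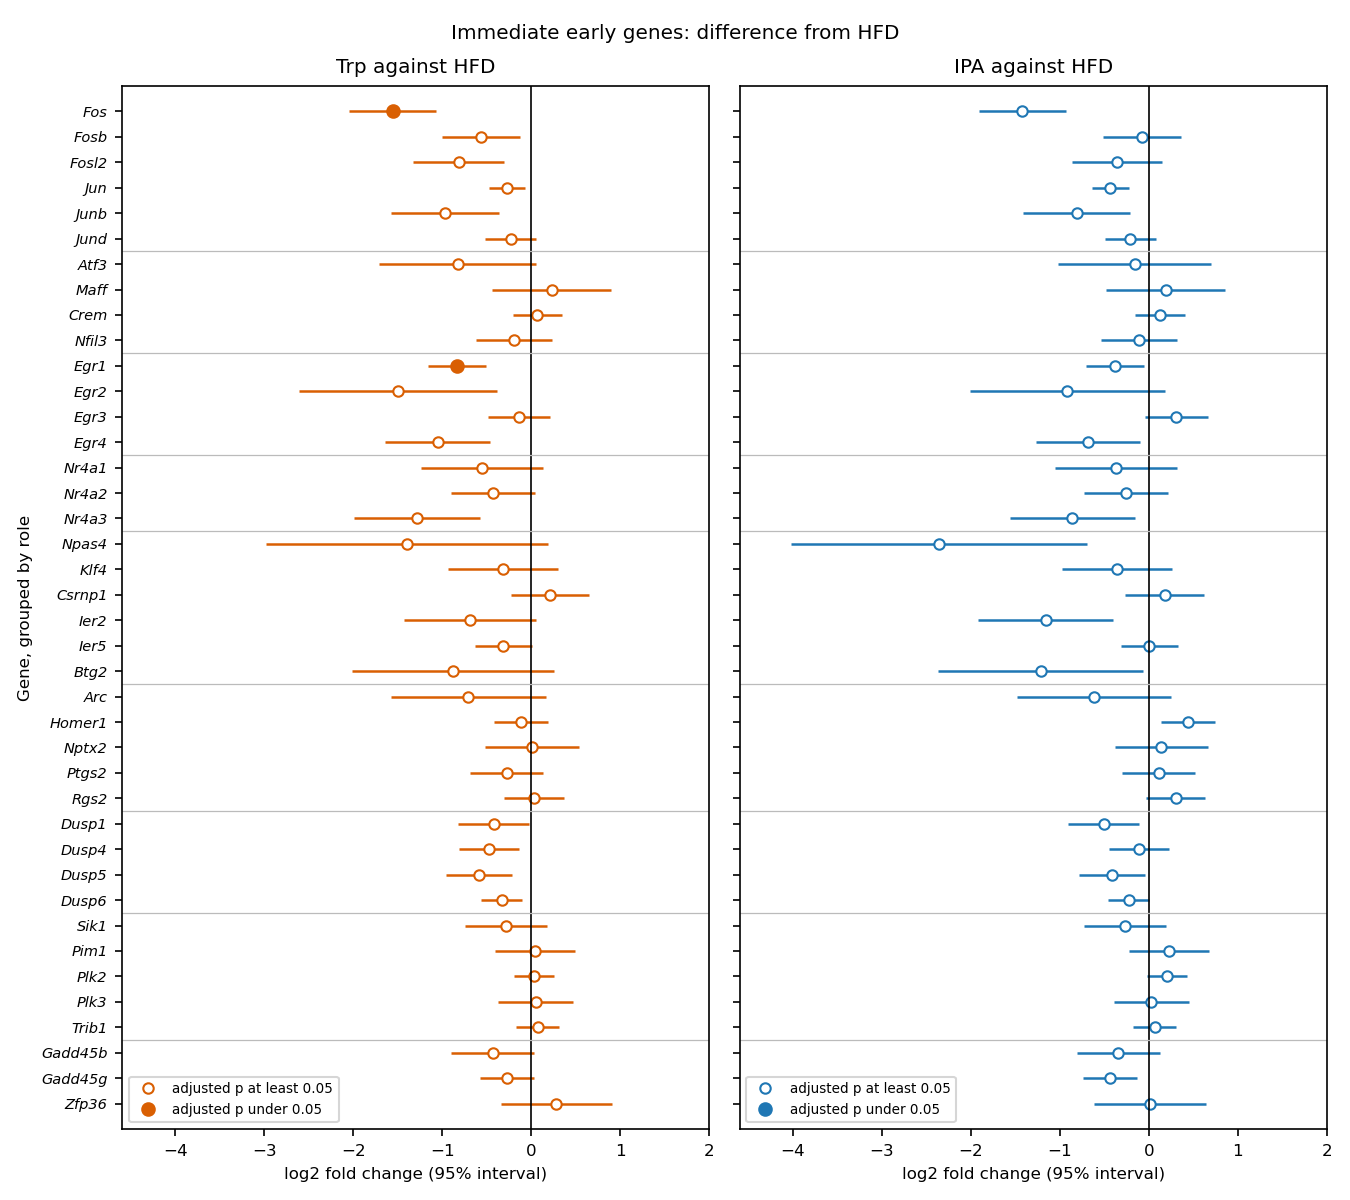
Points are log2 fold changes of each gene in Trp against HFD (left) and IPA against HFD (right) with 95% intervals, filled where the adjusted p is under 0.05 and open elsewhere; genes are grouped by role. Filled points are Fos (-1.56) and Egr1 (-0.84) on the left, and there is none on the right, where Npas4 (-2.36) has the widest interval.

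The AP-1 subunits are leucine zipper proteins of the FOS and JUN families that pair to bind DNA. Fos, the founding member, stood at 33.9, 32.2 and 19.0 CPM across HFD libraries 1 to 3, 8.11, 12.5 and 11.2 CPM across IPA libraries 1 to 3, and 8.63, 9.74 and 10.5 CPM across Trp libraries 1 to 3. Even the lowest HFD library, HFD 3, exceeded every treated library, and the treated groups overlapped each other. In Trp against HFD, Fos fell by 1.56 (log2; SE 0.22, edgeR adjusted p = 0.0207). In IPA against HFD its log2 fold change was nearly as large, -1.42 (SE 0.22, 95% interval -1.91 to -0.93), with an adjusted p of 0.134. The Trp call did not survive the loss of HFD 1 (adjusted p = 0.0559), HFD 2 (0.0591), Trp 1 (0.101) or Trp 2 (0.126), or a fit of the 6 compared libraries alone (0.0629). Without HFD 3 both comparisons passed, with Fos at -1.78 in Trp (adjusted p = 0.000264) and -1.64 in IPA (adjusted p = 0.000735).

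Junb, whose product restrains JUN in the AP-1 pair, stood at 60.2, 54.7 and 28.7 CPM across HFD libraries 1 to 3, 21.2, 32.7 and 27.9 CPM across IPA libraries 1 to 3, and 23.1, 26.3 and 24.0 CPM across Trp libraries 1 to 3. HFD 1 and HFD 2 were well above all others, and HFD 3 lay within the IPA range. The log2 fold change was -0.97 (SE 0.26, adjusted p = 0.234) in Trp and -0.81 (SE 0.26, adjusted p = 0.383) in IPA. Without HFD 3 it was -1.23 (adjusted p = 0.00144) in Trp and -1.07 (adjusted p = 0.0156) in IPA.

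Jun itself was steadier. It read 40.5, 33.9 and 34.2 CPM across HFD libraries 1 to 3, 27.4, 27.7 and 25.4 CPM across IPA libraries 1 to 3, and 30.3, 29.4 and 30.3 CPM across Trp libraries 1 to 3. The 3 groups did not overlap one another, with IPA lowest. Its log2 fold change was -0.43 in IPA (SE 0.09, adjusted p = 0.191) and -0.27 in Trp (SE 0.09, adjusted p = 0.296).

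Fosb and Fosl2 are relatives of Fos, and Fosb also yields a truncated protein that is long-lived. Fosb gave 10.8, 18.8 and 11.2 CPM across HFD libraries 1 to 3, 12.1, 14.3 and 12.2 CPM across IPA libraries 1 to 3, and 8.12, 10.8 and 8.67 CPM across Trp libraries 1 to 3. Trp 2 all but touched HFD 1, so the groups are separate only narrowly. The log2 fold change of Fosb was -0.57 (SE 0.20, adjusted p = 0.316) in Trp and -0.08 (SE 0.20, adjusted p = 0.924) in IPA. Fosl2 ran at 18.6, 40.5 and 31.5 CPM across HFD libraries 1 to 3, 23.4, 22.7 and 24.5 CPM across IPA libraries 1 to 3, and 17.0, 19.1 and 15.4 CPM across Trp libraries 1 to 3. HFD 1 was as low as Trp, and Fosl2 had a log2 fold change of -0.81 (SE 0.23, adjusted p = 0.233) in Trp and -0.36 (SE 0.23, adjusted p = 0.61) in IPA. Jund, a subunit that many cells express without stimulation, averaged 111 ± 17.2 CPM in HFD libraries, 96.1 ± 8.16 in IPA libraries and 94.7 ± 13.8 in Trp libraries, with overlap. All 6 subunits were below 0 in both comparisons, with medians of -0.69 in Trp and -0.40 in IPA.

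**Figure D3:**
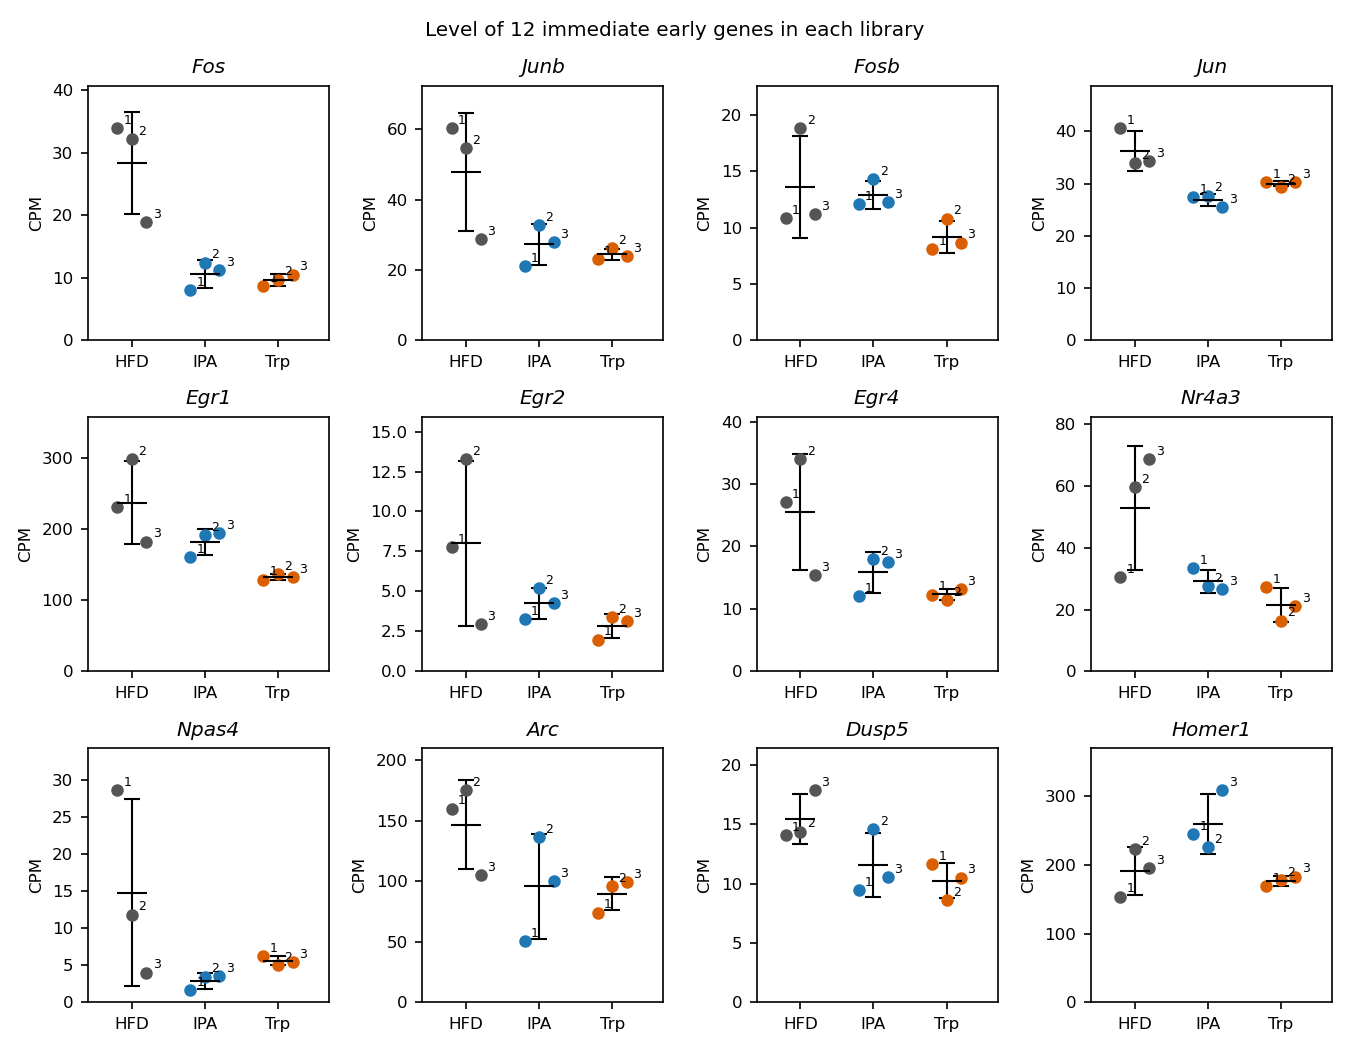
CPM of 12 genes in each library, numbered by replicate; bars are the mean and SD of 3 libraries per group and each vertical axis starts at 0. For Fos, all HFD libraries (19.0 to 33.9 CPM) sit above all treated ones (8.11 to 12.5 CPM), whereas Homer1 is highest in IPA.

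Of 4 other leucine zipper factors of the list, 2 were below 0 in each comparison. Atf3, a stress-induced repressor, stood at 1.07 ± 0.353 CPM in HFD libraries, 0.961 ± 0.448 in IPA libraries and 0.605 ± 0.145 in Trp libraries. Its log2 fold change was -0.83 (SE 0.41, adjusted p = 0.474) in Trp and -0.16 (SE 0.40, adjusted p = 0.922) in IPA. Maff, a small MAF protein, Crem, which encodes activators and repressors at cyclic AMP response elements, and Nfil3, a repressor tied to the circadian clock, had log2 fold changes of 0.23, 0.07 and -0.19 in Trp and of 0.19, 0.13 and -0.11 in IPA. All 4 overlapped between groups in both comparisons. Gene-level counts do not separate the short inducible Crem repressor from its longer forms.

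EGR proteins are zinc finger factors that bind GC-rich sites in promoters of synaptic genes. Egr1 stood at 231, 298 and 182 CPM across HFD libraries 1 to 3, 160, 191 and 194 CPM across IPA libraries 1 to 3, and 129, 137 and 132 CPM across Trp libraries 1 to 3. Trp was below every other library, and IPA overlapped the lower end of HFD. In Trp against HFD, Egr1 fell by 0.84 (log2; SE 0.15, adjusted p = 0.0415). In IPA its log2 fold change was -0.38 (SE 0.15, adjusted p = 0.431). The Trp call held when HFD 3 was left out (adjusted p = 0.00101) and was lost when any other library was, with adjusted p of 0.0609 to 0.2. It was also lost in a fit of the 6 compared libraries (0.14) and on log2 FPKM (0.0882 to 0.0903).

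Egr4, needed for sperm maturation and expressed in neurons, gave 27.2, 33.9 and 15.5 CPM across HFD libraries 1 to 3, 12.1, 18.0 and 17.5 CPM across IPA libraries 1 to 3, and 12.3, 11.4 and 13.2 CPM across Trp libraries 1 to 3. Trp again lay below all HFD libraries, by a small margin at HFD 3. Egr4 had a log2 fold change of -1.05 (SE 0.26, adjusted p = 0.196) in Trp and -0.69 (SE 0.26, adjusted p = 0.433) in IPA, and without HFD 3 it was -1.31 (adjusted p = 0.00153) and -0.95 (adjusted p = 0.0347).

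Egr2, known from Schwann cell myelination and induced in neurons too, was at 7.79, 13.3 and 2.97 CPM across HFD libraries 1 to 3, 3.28, 5.20 and 4.28 CPM across IPA libraries 1 to 3, and 1.99, 3.40 and 3.16 CPM across Trp libraries 1 to 3. HFD 3 was as low as the treated mice. Fitted log2 fold changes of Egr2 were -1.50 (SE 0.49, adjusted p = 0.311) in Trp and -0.92 (SE 0.48, adjusted p = 0.545) in IPA. Without HFD 3 Egr2 passed in Trp, at -1.89 (adjusted p = 0.0072).

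Egr3, which muscle spindles need for their development, had a fitted change above 0 in IPA, where it overlapped HFD. It stood at 96.4, 143 and 102 CPM across HFD libraries 1 to 3, 116, 138 and 169 CPM across IPA libraries 1 to 3, and 98.6, 103 and 109 CPM across Trp libraries 1 to 3. Egr3 had a log2 fold change of 0.31 (SE 0.16, adjusted p = 0.519) in IPA and -0.14 (SE 0.16, adjusted p = 0.812) in Trp. All 4 EGR genes were below 0 in Trp (median -0.94) and 3 of 4 in IPA (median -0.53).

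NR4A proteins are orphan nuclear receptors that act without a known hormone, and Nr4a1 to Nr4a3 are induced through CREB. Each of the 3 had 4 core sites in its promoter window, the most of any member searched. Nr4a3 stood at 30.5, 59.5 and 68.6 CPM across HFD libraries 1 to 3, 33.4, 27.5 and 26.6 CPM across IPA libraries 1 to 3, and 27.4, 16.4 and 21.1 CPM across Trp libraries 1 to 3. Unlike Fos and Junb, it was highest in HFD 3, and HFD 1 was close to the treated libraries. Nr4a3 had a log2 fold change of -1.29 (SE 0.31, adjusted p = 0.2) in Trp and -0.86 (SE 0.30, adjusted p = 0.423) in IPA. Without HFD 1, the members called in Trp against HFD were Nr4a3 and Fosl2 (against 0.173% of all genes) in place of Fos and Egr1, and in IPA against HFD 0 members passed (0.00524%).

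Nr4a1 gave 61.9, 79.4 and 37.4 CPM across HFD libraries 1 to 3, 33.2, 59.8 and 45.7 CPM across IPA libraries 1 to 3, and 35.8, 46.0 and 39.8 CPM across Trp libraries 1 to 3, so the groups overlapped. For Nr4a1 the log2 fold change was -0.56 (SE 0.30, adjusted p = 0.549) in Trp and -0.36 (SE 0.30, adjusted p = 0.708) in IPA. Nr4a2, needed for midbrain dopamine neurons, averaged 40.4 ± 12.4 CPM in HFD libraries, 33.8 ± 3.59 in IPA libraries and 30.1 ± 6.05 in Trp libraries. All 3 receptors were below 0 in both comparisons.

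Npas4 is a neuron-restricted factor that responds to calcium entry and shapes inhibitory synapses. It stood at 28.7, 11.9 and 4.04 CPM across HFD libraries 1 to 3, 1.63, 3.50 and 3.57 CPM across IPA libraries 1 to 3, and 6.31, 5.10 and 5.50 CPM across Trp libraries 1 to 3. HFD libraries spread over a wide range, and HFD 3 was close to the IPA libraries. All IPA libraries lay below all HFD and all Trp libraries. The log2 fold change of Npas4 was the most negative of any member in IPA, -2.36, but its interval was wide (-4.02 to -0.69, SE 0.70, adjusted p = 0.369). In Trp it was -1.40 (SE 0.66, adjusted p = 0.501).

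Ier2 and Btg2 shared with Npas4 the order of the HFD libraries and the lowest library, IPA 1. Unlike in Npas4, the IPA libraries of Ier2 and Btg2 overlapped both HFD and Trp. Ier2, a small nuclear protein, ran at 13.8, 8.01 and 5.65 CPM across HFD libraries 1 to 3, 3.03, 5.89 and 3.38 CPM across IPA libraries 1 to 3, and 4.79, 5.79 and 6.47 CPM across Trp libraries 1 to 3. Btg2, an anti-proliferative factor, ran at 27.3, 14.1 and 6.44 CPM across HFD libraries 1 to 3, 4.75, 8.33 and 7.52 CPM across IPA libraries 1 to 3, and 7.85, 10.3 and 7.98 CPM across Trp libraries 1 to 3. HFD 1 was highest and HFD 3 lowest within its group. In IPA the log2 fold change was -1.16 (SE 0.34, adjusted p = 0.332) for Ier2 and -1.21 (SE 0.49, adjusted p = 0.469) for Btg2. In Trp it was -0.69 (SE 0.33, adjusted p = 0.482) and -0.87 (SE 0.48, adjusted p = 0.565).

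Ier5, a regulator of heat shock factor activity, followed no such order. It gave 63.0, 86.5 and 62.2 CPM across HFD libraries 1 to 3, 60.9, 75.6 and 76.1 CPM across IPA libraries 1 to 3, and 53.3, 50.8 and 65.8 CPM across Trp libraries 1 to 3. Its log2 fold change was -0.32 (SE 0.15, adjusted p = 0.451) in Trp and 0.01 (SE 0.15, adjusted p = 0.993) in IPA, the latter turning to -0.01 with upper quartile scaling, which moved the median of all genes from -0.0056 to -0.0256. Klf4, a zinc finger factor, had log2 fold changes of -0.32 and -0.36 in Trp and IPA, and Csrnp1, a nuclear protein induced by AXIN1, of 0.22 and 0.18.

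Effectors at the synapse divided. Arc, whose product removes AMPA receptors from the synapse, stood at 160, 175 and 105 CPM across HFD libraries 1 to 3, 50.4, 136 and 100 CPM across IPA libraries 1 to 3, and 74.1, 95.9 and 99.3 CPM across Trp libraries 1 to 3. All Trp libraries were below HFD, while IPA ranged from the lowest of the 9 to a value within the HFD range. For Arc the log2 fold change was -0.71 (SE 0.37, adjusted p = 0.543) in Trp and -0.62 (SE 0.37, adjusted p = 0.597) in IPA.

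Homer1, whose long forms are scaffolds of the postsynaptic density and whose short inducible form uncouples them, went the other way in IPA. It stood at 154, 222 and 195 CPM across HFD libraries 1 to 3, 244, 226 and 308 CPM across IPA libraries 1 to 3, and 169, 177 and 183 CPM across Trp libraries 1 to 3. Every IPA library exceeded every other library. Homer1 had a log2 fold change of 0.44 (SE 0.14, 95% interval 0.14 to 0.75, adjusted p = 0.341) in IPA and -0.11 (SE 0.14, adjusted p = 0.827) in Trp, where it turned to 0.02 on log2 FPKM. Long and short forms are summed in these counts.

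Rgs2, which shuts off G protein signalling, was at 79.0 ± 20.9 CPM in HFD libraries, 97.4 ± 3.90 in IPA libraries and 80.9 ± 7.46 in Trp libraries. Nptx2, a secreted pentraxin that gathers AMPA receptors on interneurons, was at 32.5 ± 7.80, 35.9 ± 5.20 and 32.7 ± 9.54 CPM. Ptgs2, the inducible cyclooxygenase, was at 8.39 ± 0.895, 9.07 ± 1.68 and 6.92 ± 1.72 CPM. None of these 3 separated from HFD in either treated group.

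MAP kinase phosphatases, the dual-specificity enzymes that end ERK, JNK and p38 signalling, were below 0 in all 8 fitted changes of Trp and IPA against HFD, and edgeR's test on all 9 libraries called none. The authors' deposited table gives Dusp5 a q of 0.0401 in Trp against HFD. Dusp5, a nuclear ERK phosphatase with adjoining CArG boxes upstream, gave 14.1, 14.4 and 17.8 CPM across HFD libraries 1 to 3, 9.48, 14.6 and 10.6 CPM across IPA libraries 1 to 3, and 11.6, 8.64 and 10.5 CPM across Trp libraries 1 to 3. Dusp4, also nuclear, gave 7.22, 7.47 and 8.81 CPM across HFD libraries 1 to 3, 6.98, 7.42 and 7.30 CPM across IPA libraries 1 to 3, and 6.51, 4.53 and 5.80 CPM across Trp libraries 1 to 3. In both genes Trp lay below HFD and IPA overlapped HFD. The log2 fold change in Trp was -0.59 (SE 0.17, adjusted p = 0.227) for Dusp5 and -0.48 (SE 0.16, adjusted p = 0.268) for Dusp4. In IPA it was -0.42 (SE 0.17, adjusted p = 0.449) and -0.11 (SE 0.16, adjusted p = 0.835).

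Dusp6, the cytoplasmic ERK phosphatase, averaged 46.2 ± 4.38 CPM in HFD libraries, 39.5 ± 4.84 in IPA libraries and 36.7 ± 1.25 in Trp libraries, again without overlap between Trp and HFD (-0.33, SE 0.11, adjusted p = 0.263). Dusp1, the founding MAP kinase phosphatase, stood at 35.6, 31.8 and 22.6 CPM across HFD libraries 1 to 3, 16.3, 25.7 and 21.3 CPM across IPA libraries 1 to 3, and 20.7, 23.1 and 23.4 CPM across Trp libraries 1 to 3. HFD 3 lay among the treated libraries. For Dusp1 the log2 fold change was -0.51 (SE 0.18, adjusted p = 0.393) in IPA and -0.42 (SE 0.18, adjusted p = 0.41) in Trp.

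Kinase genes of the list overlapped between HFD and each treated group. Plk2, a polo-like kinase that weakens overactive synapses, was at 131 ± 17.6 CPM in HFD libraries, 151 ± 10.5 in IPA libraries and 134 ± 9.07 in Trp libraries. Plk3 was at 7.54 ± 0.852, 7.68 ± 1.15 and 7.80 ± 2.16 CPM, the survival kinase gene Pim1 at 2.23 ± 0.275, 2.61 ± 0.406 and 2.29 ± 0.332 CPM, and the pseudokinase gene Trib1 at 15.3 ± 1.48, 16.0 ± 0.945 and 16.1 ± 1.36 CPM. Sik1, a salt-inducible kinase that holds CREB coactivators in the cytoplasm, was the exception in direction, at 10.8 ± 3.48, 8.94 ± 1.76 and 8.84 ± 0.904 CPM, with overlap. Medians of these 5 were 0.04 in Trp and 0.07 in IPA. For Plk2 the 95% interval in Trp was -0.20 to 0.25 and for Trib1 -0.17 to 0.31. In IPA the log2 fold change was 0.21 for Plk2 (interval -0.015 to 0.43) and 0.23 for Pim1 (interval -0.22 to 0.68).

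The last 3 members respond to stress or destroy messenger RNA. Gadd45g, a growth arrest and DNA damage gene, gave 13.8, 11.3 and 11.9 CPM across HFD libraries 1 to 3, 9.73, 10.2 and 7.42 CPM across IPA libraries 1 to 3, and 10.8, 10.2 and 9.82 CPM across Trp libraries 1 to 3. Both treated groups lay below HFD, closely so in Trp. Its log2 fold change was -0.43 (SE 0.14, adjusted p = 0.345) in IPA and -0.27 (SE 0.14, adjusted p = 0.51) in Trp. Gadd45b, which takes part in DNA demethylation after neuronal activity, averaged 14.3 ± 3.57, 11.3 ± 2.40 and 10.6 ± 2.28 CPM. Zfp36, a protein that binds AU-rich messages for decay, averaged 1.77 ± 0.261, 1.78 ± 0.313 and 2.15 ± 0.908 CPM in HFD, IPA and Trp.

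The treated groups were next set against each other. Homer1, Egr1, Egr3, Fosb, Dusp4, Fosl2, Rgs2 and Plk2 lay wholly lower in Trp than in IPA, and Jun and Npas4 wholly higher, but none passed. edgeR called 0 genes of 18690 (0%) in this comparison. The log2 fold change of Trp against IPA was -0.55 (SE 0.14) for Homer1, -0.45 (SE 0.15) for Egr1, -0.45 (SE 0.16) for Egr3, -0.49 (SE 0.20) for Fosb and -0.36 (SE 0.16) for Dusp4, each with an adjusted p of 0.987. For Npas4 it was 0.96 (SE 0.69, interval -0.68 to 2.60). For Fos it was -0.14 (SE 0.22, interval -0.63 to 0.35). Members below 0 numbered 28 of 40 (48.1% of all genes), and the median was -0.13. The 8 members with Trp wholly below IPA were 20% of the list, against 5.55% of all genes. The 2 wholly above were 5%, near the share of all genes (5.61%). An unadjusted p under 0.05 was reached by 6 members, all lower in Trp (2.07% of all genes), and by 0 in the other direction (2.43%), and DESeq2 called 0 of the members. A difference between the responses to tryptophan and to indole-3-propionic acid was thus not detected for any member.

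Averaging the treated groups gave 1 call, Fos. The mean of Trp and IPA was lower than HFD by a log2 fold change of -1.49 (SE 0.18, adjusted p = 0.0127), or 2.81-fold, and 69 genes (0.369%) passed in this comparison, 35 of them lower (0.187%). Fos did not pass without HFD 1 (adjusted p = 0.0584), IPA 1 (0.054) or IPA 2 (0.051). Leaving out HFD 3 gave 8 members, all lower (Fos, Junb, Egr4, Egr1, Egr2, Dusp1, Npas4 and Jun), against 1.44% of all genes. In this comparison DESeq2 called 7 members (2.53% of all genes it tested), a fit with the mean level of striatal markers as a covariate 5 (0.68%), and one with blood cell markers as a covariate 3 (1.08%). The fit without HFD 3 and Trp 3 called 8 members (5.29%), and that without HFD 1 called 2 (0.0577%). All 6 treated libraries lay below all HFD libraries in 3 members, Fos, Jun and Gadd45g (3.08% of all genes), and above them in 0 (2.72%). Fitted changes were below 0 for 28 of 40 (51% of all genes), with a median of -0.33. An unadjusted p under 0.05 was reached by 16 members in the lower direction (6.78%) and 0 in the higher (6.15%).

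Several calls turned on HFD 3, the library that stood apart in striatal, thalamic and oligodendrocyte markers, and the part of these in the results was not tested beyond the striatal covariate. It had the lowest HFD value for, among others, Fos, Junb, Egr1, Egr2, Egr4, Nr4a1, Npas4, Ier2, Btg2, Arc and Dusp1. Without it the members called were 5 in Trp against HFD (Fos, Egr1, Junb, Egr4 and Egr2, against 1.69% of all genes) and 3 in IPA against HFD (Fos, Junb and Egr4, against 0.272%). Trp 3 had the lowest mean log2 CPM of choroid plexus markers, -0.29 against 1.04 to 3.93 in the other libraries. Leaving out Trp 3 with HFD 3 gave 6 members in Trp (4.09% of all genes) and 5 in IPA (1.3%).

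Markers of other cells moved with the groups. The mean log2 CPM of 13 endothelial genes was 4.30 ± 0.04 in HFD libraries, 3.92 ± 0.05 in IPA libraries and 4.10 ± 0.14 in Trp libraries (summed 318 to 365, 271 to 278 and 283 to 332 CPM), with 12 of 13 below 0 in IPA and 10 of 13 in Trp. With this mean as a covariate no member was called in any comparison, and Fos had log2 fold changes of -1.31 in Trp (adjusted p = 0.446) and -0.94 in IPA (adjusted p = 0.997). No treated library reached the lowest HFD library on this covariate, so it and the treatment cannot be told apart here. Of 10 blood cell genes, 7 were tested and all 7 were below 0 in both comparisons, with summed levels of 649 to 2310 CPM in HFD, 320 to 472 in IPA and 312 to 461 in Trp. The neutrophil genes S100a8, S100a9 and Ngp and the red cell anion exchanger Slc4a1 were at 0 counts in at least 1 library. With the blood mean as a covariate 3 members were called in Trp (1.36% of all genes) and 1, Fos, in IPA (0.471%). Fos then stood at -2.05 in Trp (adjusted p = 0.0014) and -1.95 in IPA (adjusted p = 0.0062). Mean log2 CPM of the tested blood genes was at least 5.02 in HFD libraries and at most 4.63 in treated ones. This covariate and the treatment thus cannot be told apart either. Striatal markers were all above 0 in both comparisons, with medians of 0.42 in Trp and 0.73 in IPA. With their mean as a covariate 6 members were called in Trp (Egr1, Fos, Egr2, Egr4, Junb and Fosb, against 1.14% of all genes) and 4 in IPA (Fos, Egr2, Egr1 and Egr4, against 0.0535%). Of 13 microglial genes all were above 0 in Trp, with 4 called (0.214% of all genes were called higher). A list of 7 heat shock and handling genes had mean log2 CPM of 6.18 ± 0.11 in HFD libraries, 6.31 ± 0.20 in IPA libraries and 6.36 ± 0.09 in Trp libraries. The part of microglia and handling in the results was not tested.

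Upstream of the early genes, no component passed. The list of receptors and calcium channels had 10 tested genes and 0 calls in each comparison. Of all genes, 0.342% were called in Trp, 0.00535% in IPA and 0.369% in the mean, so 0 calls in lists this short say little. Its smallest p was that of Grin2a, an NMDA receptor subunit, with log2 fold changes of -0.24 (SE 0.10, adjusted p = 0.373) in Trp and -0.27 (SE 0.10, adjusted p = 0.392) in IPA. Of 27 genes of the cytoplasmic relay 0 were called. Camk2a, the calmodulin-dependent kinase of excitatory synapses, stood at -0.32 (SE 0.13, adjusted p = 0.375) in Trp, and Rps6ka5, a kinase that phosphorylates CREB and histone H3, at 0.44 (SE 0.15, adjusted p = 0.363) in IPA. Of 18 transcription factors that act on early genes 0 were called. Mef2c, an activity-dependent factor, was at -0.46 (SE 0.12, adjusted p = 0.182) in Trp, and Srf, the factor of the CArG box, at -0.12 (SE 0.15, adjusted p = 0.821) in Trp and 0.03 (SE 0.15, adjusted p = 0.965) in IPA.

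Creb1, whose product is known to bind cyclic AMP response elements, had 1 library unlike the rest. Its level was 2.02 CPM in HFD 3, from 85 counts, and 46.7 to 59.4 CPM in the other 8 libraries. In the authors' FPKM the contrast was smaller, 1.37 against 5.05 to 6.25. Among 9494 genes with at least 10 CPM in 8 libraries, 3 were under 10% of the next lowest library in HFD 3 (Creb1, Dcx and Rasal2) and 8 were so in any library. No member was among them. With HFD 3 included, the fitted log2 fold change of Creb1 was 0.61 in Trp (SE 0.90, adjusted p = 0.866) and 0.72 in IPA (SE 0.90, adjusted p = 0.824).

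Late response genes, many of them targets of the early factors, lay on both sides of 0. Of 19 tested, 9 were below 0 in Trp (50.5% of all genes) and 7 in IPA (51.1%). By edgeR 0 were called in either comparison, against 0.342% and 0.00535% of all genes. In the mean of both groups, where 0.182% of all genes were called higher, Inhba rose by a log2 fold change of 0.71 (SE 0.12, adjusted p = 0.0289). That call held without HFD 3 (adjusted p = 0.0267) or Trp 3 (0.0307) and was lost without any 1 of the other 7 libraries (0.0584 to 0.151), with the replicate number as a block (0.103), on log2 FPKM (0.0841 to 0.101) and with the striatal (0.0827), blood (0.158) or endothelial covariate (0.876). Inhba, the activin A subunit that protects neurons after activity, stood at 7.49, 8.21 and 7.50 CPM across HFD libraries 1 to 3, 13.9, 12.9 and 17.5 CPM across IPA libraries 1 to 3, and 10.5, 12.2 and 9.86 CPM across Trp libraries 1 to 3. The 3 groups did not overlap, and its log2 fold change was 0.93 in IPA (SE 0.14, adjusted p = 0.106) and 0.49 in Trp (SE 0.14, adjusted p = 0.217). For Inhba in IPA, DESeq2 gave an adjusted p of 4.85e-06 and edgeR without the filter on low counts 0.0197. Leaving out 1 library gave edgeR values of 0.0347 to 0.288. Bdnf, the neurotrophin downstream of CREB and NPAS4, had log2 fold changes of -0.31 in Trp (SE 0.15, adjusted p = 0.481) and -0.22 in IPA (SE 0.15, adjusted p = 0.644). Scg2, the precursor of secretoneurin, was at 0.45 in Trp (SE 0.14, adjusted p = 0.242).

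A wider list of other early response genes, induced by growth factors and stress in many cells, had 42 tested members. Of these 0 were called, against 0.342% of all genes in Trp and 0.00535% in IPA. Below 0 were 29 in Trp (median -0.10), against 50.5% of all genes, and 26 in IPA (median -0.07), against 51.1%. Midn, whose product carries nuclear proteins to the proteasome, was at -0.50 in Trp (SE 0.14, adjusted p = 0.217), and Arl4d, a small GTPase gene, at 0.37 in Trp (SE 0.12, adjusted p = 0.255) and 0.42 in IPA (SE 0.12, adjusted p = 0.296).

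**Figure D4:**
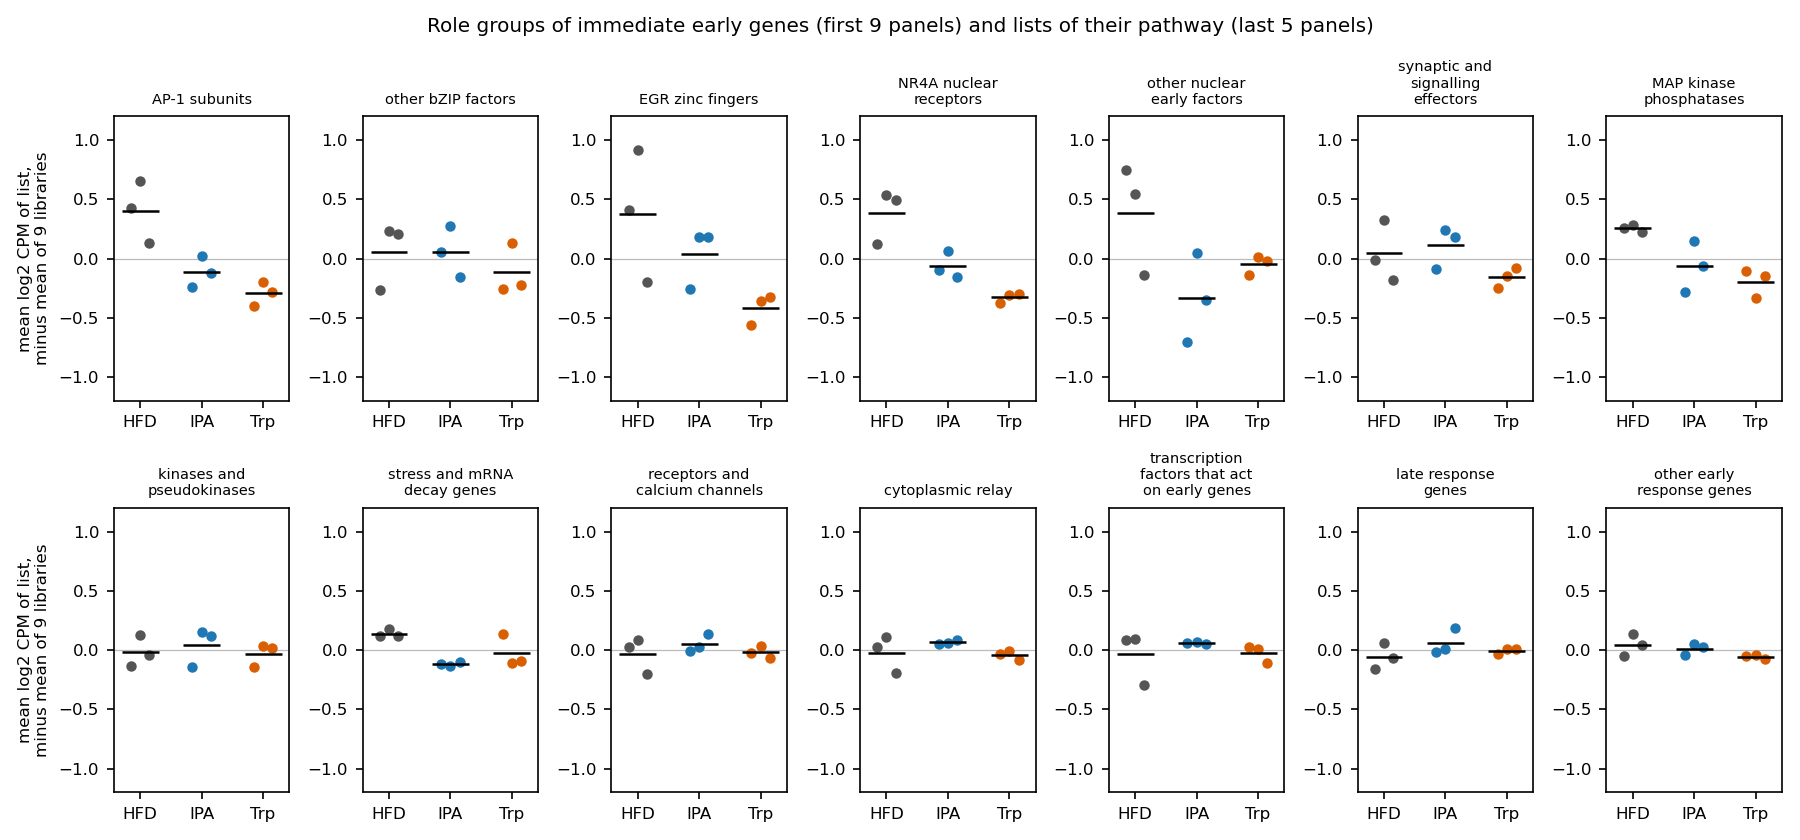
Mean log2 CPM of each list minus its mean over the 9 libraries, with 1 point per library and a bar at each group mean. The first 9 panels are role groups of the early genes and the last 5 the pathway lists; before centring, the group means of HFD, IPA and Trp were 5.14, 4.62 and 4.44 for AP-1 subunits, 5.51, 5.17 and 4.72 for EGR genes and 7.15, 7.23 and 7.16 for receptors and channels.

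Members differed in how closely they followed the rest of the list. Over the 9 libraries the correlation of a gene's log2 CPM with the mean of the other members was highest for Dusp6 (0.92), Egr1 (0.91), Egr4 (0.89), Egr2 (0.89) and Nr4a1 (0.88). It was below 0 for Trib1 (-0.04), Pim1 (-0.07), Crem (-0.13), Maff (-0.22) and Zfp36 (-0.61). These are descriptions over libraries that share depth, tissue makeup and group differences. Outside the list, among 13180 genes with a mean of at least 1 FPKM, the profiles most like that of the members were those of Midn (r = 0.97), Dusp7 (0.95), Nab2 (0.94), Foxk2 (0.94) and Rnf4 (0.94). Midn stood at 31.7, 45.0 and 32.6 CPM across HFD libraries 1 to 3, 26.4, 34.0 and 31.2 CPM across IPA libraries 1 to 3, and 23.9, 24.9 and 28.4 CPM across Trp libraries 1 to 3. Dusp7 encodes an ERK phosphatase and Nab2 a corepressor that binds EGR proteins. In Trp against HFD, Nab2 was at -0.38 (SE 0.14, adjusted p = 0.316) and Dusp7 at -0.20 (SE 0.09, adjusted p = 0.428).

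The authors' deposited table gives its own fold changes and q-values for all 40 members. By the authors' deposited table, q was under 0.05 in Trp against HFD for 8 members (Fos, Fosl2, Junb, Egr1, Egr2, Egr4, Arc and Dusp5), against 1.53% of 15337 genes listed there with a value. In IPA against HFD the authors' deposited table had 5 members (Fos, Jun, Junb, Nr4a3 and Ier2), against 1.24% of 15236. For Fos the authors' deposited table gives log2 fold changes of -1.56 (q = 6.67e-10) and -1.42 (q = 3.38e-07), and for Egr1 -0.84 (q = 9.5e-05) and -0.38 (q = 0.336). Those fold changes equal the ones fitted here at 2 decimals. Which test the authors' deposited table rests on was not stated in the labels.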

How the data were processed

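Counts per gene and library were used as the authors deposited them. The authors' FPKM, a unit scaled to gene length and library size, served for levels between genes. The file headers name these columns only as count and fpkm. The log2 fold changes, p-values and q-values of the authors' deposited table are quoted as theirs. StringTie 2.1.3b and mm10 are named per the submitters' processing notes, whereas the sources used here give no aligner, counting tool or annotation. All count columns carried a sample's name and 0 were left over.

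In R 4.3.3, genes were kept by filterByExpr of edgeR 4.0.16 (minimum count 10) and scaled by TMM. A robust quasi-likelihood model gave each group 1 mean, used all 9 libraries and had no block. Tests were two-sided, adjusted by Benjamini-Hochberg over 18690 genes, and called at 0.05. Log2 CPM used a prior count of 2. With 3 libraries a group, an exact permutation test could not go below p = 0.1, and p-values measure the spread between these libraries.

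Members and lists were chosen with earlier results of these data known. Values per library are given for 13 members listed in the design, for called members and for the 6 with the smallest p per comparison. Up to 3 genes were named per pathway list, with Bdnf, Creb1, Srf and the 5 most similar profiles. Mkl1, Mkl2, Cyr61 and Ctgf, listed with current symbols beside them, matched no row. Alternatives used DESeq2 1.42.0 and limma 3.58.1. The fit was tested on simulated data. Figures used Python 3.11.15 and matplotlib 3.10.9.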

Additional observations from a re-analysis of the deposited data

How the results depend on the processing

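All counts below are members called, in Trp against HFD (2 as reported), IPA against HFD (0) and the mean of both against HFD (1). Leaving out 1 library at a time gave 0 to 5, 0 to 3 and 0 to 8, while the share of all genes called ran from 0.0679% to 1.69%, 0% to 0.272% and 0% to 1.44%. DESeq2 gave 6, 5 and 7, the striatal covariate 6, 4 and 5, and the fit without HFD 3 and Trp 3, chosen after seeing the data, 6, 5 and 8. The blood covariate, also chosen after seeing the data and without overlap between HFD and treated libraries, gave 3, 1 and 3. The endothelial covariate, likewise, gave 0, 0 and 0 and moved the median log2 fold change of members to -0.065 in IPA, -0.11 in the mean and -0.33 in Trp against IPA. A threshold of 0.1 gave 2 in the mean (0.787% of all genes). Trp against HFD gave 1 with limma on log2 FPKM at each of the 3 pseudocounts (0.399% to 0.444% of all genes), 0 with only the libraries compared (0.0433%) and 0 with the replicate block (0.123%). Deviations from the group mean did not go together in same-numbered libraries (correlations of -0.20 to 0.05). With 3 libraries a group, this cannot decide whether the numbers pair the mice. The block changed no other count of members, though Inhba in the mean lost its call (adjusted p = 0.103). In Trp against IPA every alternative gave 0. The cause of these shifts was not tested.

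Direction turned for single genes as follows, on the log2 scale. With the endothelial covariate the IPA values were 0.36 for Arc, 0.31 for Egr2, 0.35 for Fosb and 0.20 for Nr4a1, and the Trp values 0.13 for Egr3, 0.059 for Homer1 and 0.0095 for Ier5. With the blood covariate Dusp4 in IPA stood at 0.023 and Ier5 at -0.24. With the striatal covariate Dusp4 in IPA stood at 0.079, Ier5 at -0.20 and Fos in Trp against IPA at 0.049. Homer1 in Trp stood at 0.024, 0.023 and 0.023 with limma. Ier5 in IPA stood at -0.014 with upper quartile scaling, which moved the median of all genes by as much (-0.0056 to -0.0256), and at -0.077 without HFD 3 and Trp 3. Leaving out 1 library gave ranges of -0.077 to 0.18 for Ier5 in IPA, -0.24 to 0.063 for Egr3 in Trp, -0.22 to 0.23 for Fosb in IPA and -0.24 to 0.016 for Homer1 in Trp. Fos and Egr1 in Trp, and Fos and Inhba in the mean, kept their direction under the alternatives run.

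Member counts ran from 19 (Atf3 in IPA 3) to 14744 (Egr1) per library, and each group held 3 mice.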
